A study of Mus musculus with 6 samples.

Results

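The integrated stress response regulators are 10 genes of the ATF4 axis: the bZIP transcription factors Atf4, Atf5, Atf3 and Ddit3, the pseudokinase Trib3, the small chromatin protein Nupr1, and the stress effectors Chac1, Sesn2, Ddit4 and Ppp1r15a. They were taken by symbol from a deposited table of 49671 genes. The rule uses no measured value, but the regulators were chosen with earlier results of these data known. All 10 were found, and all 10 passed the filter on low counts that left 17519 genes. Total RNA of embryonic mouse pancreas (C57BL/6J, E14.5) was sequenced from 3 samples treated with 10 µM AMI-5, a small-molecule inhibitor of protein methyltransferases, and from 3 controls, with 1 library a sample. The sources used here do not give the agent that controls received, the length of treatment or any pooling of embryos, and neither group carries a genetic change per the labels. Whether replicates are separate explants or embryos is not stated, so each p-value reflects the spread of these 6 libraries, part of which could be technical.

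In the integrated stress response, kinases that sense amino acid shortage, unfolded protein, viral RNA or heme shortage phosphorylate the translation factor eIF2. Most protein synthesis then slows, while the Atf4 mRNA is translated more through upstream reading frames in its leader. ATF4 protein, paired with C/EBP proteins, raises genes of amino acid supply and then Ddit3 and Trib3. mRNA levels, as measured here, do not show the amount of ATF4 protein or the phosphorylation of eIF2. The exocrine pancreas, with its heavy secretory load, depends on the branch of this response that starts at the endoplasmic reticulum.

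ATF4 with a C/EBP partner binds a composite element with the core TGATGNAA, so the RefSeq promoter windows of the regulators (build GRCm38.p6, 250 bases before to 50 after the gene's start) were searched for it on both strands. All 10 regulators matched, with 11 windows, since Atf5 has a pair of starts. The core was present in 4 windows, those of Trib3, Chac1, Nupr1 and Atf3, and in 3.97% of all 32851 windows of the same length. The cAMP response element TGACGTCA, whose letters read the same on both strands, was present in the window of Ppp1r15a and in 1.79% of all windows. The ER stress response element (CCAAT and CCACG, 9 bases apart, either strand) was in no window of these genes and in 0.119% of all windows. No match overlapped another. The 5 windows with a match are printed in the direction of the gene, with the match in capitals, and that of Ddit4 is added because this regulator alone fell. The 4 matches to TGATGNAA lie on the reverse strand and so read as TTNCATCA. Their first bases lie at -193 for Chac1, -110 for Atf3, -110 for Nupr1 and 15 for Trib3, counted from 1 at the RefSeq start, and at -12 for the element of Ppp1r15a. Positions are chr2:152344011-152344310, minus strand (Trib3), chr2:119350992-119351291, plus strand (Chac1), chr7:126625421-126625720, minus strand (Nupr1), chr1:191183284-191183583, minus strand (Atf3), chr7:45526219-45526518, minus strand (Ppp1r15a) and chr10:59951721-59952020, minus strand (Ddit4). The windows of Atf3 and Nupr1 lie inside the span that the deposited table gives to these genes, and the Trib3 match lies upstream of the deposited Trib3 gene.
Trib3: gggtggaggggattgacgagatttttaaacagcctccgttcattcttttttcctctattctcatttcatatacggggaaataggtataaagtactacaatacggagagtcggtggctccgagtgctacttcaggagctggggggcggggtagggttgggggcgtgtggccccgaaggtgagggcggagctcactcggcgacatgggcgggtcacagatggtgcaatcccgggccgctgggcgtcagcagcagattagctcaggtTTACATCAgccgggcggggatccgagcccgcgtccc
Chac1: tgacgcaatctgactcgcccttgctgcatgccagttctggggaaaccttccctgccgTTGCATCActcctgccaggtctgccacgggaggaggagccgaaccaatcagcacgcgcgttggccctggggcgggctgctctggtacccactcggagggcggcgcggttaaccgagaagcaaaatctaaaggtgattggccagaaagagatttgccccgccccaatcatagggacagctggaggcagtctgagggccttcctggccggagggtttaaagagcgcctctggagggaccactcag
Nupr1: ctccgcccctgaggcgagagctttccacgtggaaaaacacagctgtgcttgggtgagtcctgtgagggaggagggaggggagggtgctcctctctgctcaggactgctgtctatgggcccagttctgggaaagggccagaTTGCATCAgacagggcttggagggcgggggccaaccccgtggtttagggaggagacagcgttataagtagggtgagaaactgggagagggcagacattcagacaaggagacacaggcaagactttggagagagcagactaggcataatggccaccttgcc
Atf3: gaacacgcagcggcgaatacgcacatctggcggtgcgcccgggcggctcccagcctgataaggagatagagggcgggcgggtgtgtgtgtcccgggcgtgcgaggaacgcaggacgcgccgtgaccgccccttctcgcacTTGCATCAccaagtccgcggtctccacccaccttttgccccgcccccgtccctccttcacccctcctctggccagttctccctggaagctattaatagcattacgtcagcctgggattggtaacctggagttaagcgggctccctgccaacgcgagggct
Ppp1r15a: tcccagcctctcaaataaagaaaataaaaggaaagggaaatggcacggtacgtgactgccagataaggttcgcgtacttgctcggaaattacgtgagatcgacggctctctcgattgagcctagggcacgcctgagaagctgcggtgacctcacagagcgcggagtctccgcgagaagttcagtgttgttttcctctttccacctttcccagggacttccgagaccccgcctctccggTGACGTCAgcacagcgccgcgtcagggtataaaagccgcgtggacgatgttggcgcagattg
Ddit4: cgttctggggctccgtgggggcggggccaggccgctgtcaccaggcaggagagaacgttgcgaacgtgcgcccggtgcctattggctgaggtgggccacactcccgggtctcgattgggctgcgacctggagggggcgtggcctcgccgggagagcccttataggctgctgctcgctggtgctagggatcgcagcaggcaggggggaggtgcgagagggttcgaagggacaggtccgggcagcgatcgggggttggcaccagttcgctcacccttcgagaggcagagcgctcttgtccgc
A match is a run of letters and not a measured binding site.

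The AMI-5 libraries held 22894312 to 24805188 gene counts and the control libraries 12445425 to 13321899, so that low genes were measured less precisely in controls. The labels give an earlier version of the library kit for samples marked A, and the control titles carry A1 to A3 while the AMI-5 titles carry Am1 to Am3. Read literally, kit and treatment coincide and their effects cannot be told apart. Processed pseudogenes took 3.14% to 3.40% of counts with AMI-5 and 0.427% to 0.448% in controls. Each regulator has under 5% of its 50-base sequences in another annotated gene, with Ddit3 highest at 4.38%. Ddit3 shares 68 exonic bases with Mars on the opposite strand and Atf5 shares 82 with Nup62, and reads there could not be assigned without the strand setting, which the sources used here do not give. Pdx1, Ptf1a, Cpa1 and the other genes of a list of 14 for pancreatic epithelium all had reads. So did every gene of the other marker lists, so the presence of reads does not test the tissue label. The 22 acinar markers took 13.9% to 16.8% of counts with AMI-5 and 6.35% to 8.47% in controls. Summed CPM of 10 leukocyte markers was 532 to 573 with AMI-5 and 331 to 377 in controls, and of 10 erythroid markers 81.2 to 244 with AMI-5 and 16.4 to 39.7 in controls. The erythroid list went both ways: the adult globins Hba-a1, Hba-a2, Hbb-bs and Hbb-bt and the heme enzyme Alas2 were higher, with 53.2% to 89.3% of the 50-base sequences of these globins in other genes, and the embryonic globins Hba-x (-2.41 on the log2 scale) and Hbb-y (-2.22) were lower. For 8 neural markers the summed CPM was 119 to 133 with AMI-5 and 155 to 159 in controls, while mesenchyme, endothelium, epithelium and liver or gut sums overlapped. The epithelium sum was led by Cpa1, also an acinar marker, at 8207 CPM on average with AMI-5 and 6517 CPM in controls. Of the 14 epithelium markers, 8 were lower and 1, Cpa1, was higher, around a median of -0.22 on the log2 scale. Over all genes tested, 26.6% were lower and 27.5% higher. No marker list had a gene at 0 in all libraries, and the part of these cells in the results was not tested. AMI-5 replicate 2 stood apart in liver transcripts, with 13384 reads of Alb against 160 and 417 in the other AMI-5 libraries and 138 to 160 in controls.

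With AMI-5, 7 of the 10 regulators were higher, 1 was lower and 2 did not pass the test (quasi-likelihood test in edgeR, with p adjusted after Benjamini-Hochberg over all genes and called under 0.05). Trib3 rose most, by 8.94 times, followed by Ddit3, Nupr1, Chac1, Atf5 and Atf3. Atf4 was called higher by a small margin, and was called lower under 1 of 17 alternatives. Sesn2 and Ppp1r15a were not called, and Ddit4 fell. Over all 17519 genes, 27.5% were higher and 26.6% lower, and 54.1% were called in either direction. Among the 10915 protein-coding genes with little shared sequence (under 5% of their 50-base sequences in another gene), the class all regulators belong to, 19.6% were higher and 30.3% lower in the same fit. The AMI-5 and control libraries did not overlap for 8 of the 10, with AMI-5 higher for 7, as for 61.9% of all genes tested, with AMI-5 higher for 31.3% of all and 23.6% of those with little shared sequence. The median log2 fold change of the regulators was 0.91, against -0.0013 over all genes tested. Of the regulators, 5 were higher by a log2 fold change of at least 1 (Trib3, Ddit3, Nupr1, Chac1 and Atf5), as were 13.4% of all genes and 2.93% of the genes with little shared sequence. In this tissue, a change in how many cells of a type are present cannot be told apart from a change in RNA per cell.

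**Figure D1:**
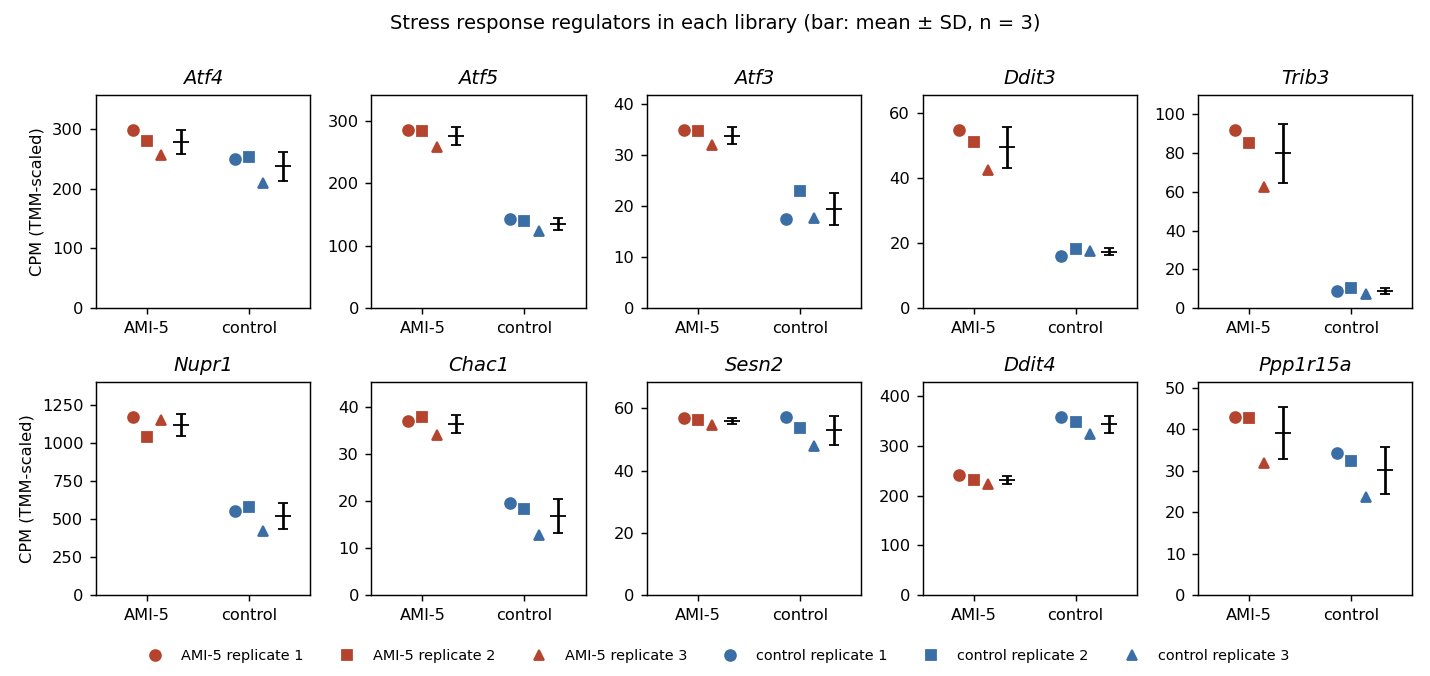
Expression of the 10 regulators in each library, in CPM (TMM-scaled) on a linear axis from 0; circles, squares and triangles are replicates 1, 2 and 3, and the black bar is mean ± SD of 3 libraries. Trib3, Ddit3, Nupr1, Chac1, Atf5, Atf3 and Atf4 lie higher in all AMI-5 libraries than in any control, Ddit4 lies lower, and Sesn2 and Ppp1r15a overlap; the small Atf4 difference (0.23 on the log2 scale) turns to -0.28 with sequence trends removed over all genes.

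Of the transcription factors, Atf4 (ENSMUSG00000042406, chromosome 15, 80255184 to 80257540, plus strand, mm10), the effector that the other regulators answer to, was at 298, 279 and 257 CPM in the AMI-5 libraries and 249, 254 and 209.7 CPM in the controls. CPM, the usual depth-scaled count, sets a gene's reads against its library's total after TMM scaling (trimmed mean of M values), given in the order of replicates 1, 2 and 3 here and for the other regulators. The lowest AMI-5 library lay just above the highest control. The log2 fold change was 0.23 (SE 0.081, 95% interval 0.049 to 0.40, adjusted p = 0.0339 in edgeR). Sequence trends are the smooth dependence of a library's log2 CPM, set against each gene's mean over the 6 libraries, on GC content and length. GC content was that of the longest transcript, and length that of the merged exons. Once these trends had been removed over all genes, Atf4 was at -0.28 and called lower (adjusted p = 0.00506 in edgeR). The call also ended without AMI-5 replicate 1 (0.18, adjusted p = 0.0912), without control replicate 3 (0.14, adjusted p = 0.126) and with libraries scaled by their totals alone (0.14, adjusted p = 0.152). Over the 17 alternatives tried, the adjusted p ran from 0.00146 to 0.152.

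Atf5 (ENSMUSG00000038539, chromosome 7, 44812256 to 44816658), a relative of Atf4 whose translation is controlled in the same way, was at 285, 283 and 258 CPM with AMI-5, against 142, 139 and 124 CPM in controls. The AMI-5 libraries lay near 2 times the control level with little spread. Its log2 fold change was 1.03 (SE 0.068, adjusted p = 1.198e-07). Atf5 and Atf4 had almost the same CPM with AMI-5, at 275 ± 15.1 and 278 ± 20.5 CPM (SD, n = 3), whereas in controls Atf5 had 135 ± 9.71 and Atf4 238 ± 24.2 CPM (SD, n = 3).

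Ddit3 (ENSMUSG00000025408, chromosome 10, 127290774 to 127296288), which encodes CHOP, a factor linked to cell death under lasting stress, was at 54.7, 51.1 and 42.4 CPM with AMI-5 and 16.1, 18.2 and 17.5 CPM in controls. Its log2 fold change was 1.51 (SE 0.10, adjusted p = 1.512e-07). Removal of the sequence trends over all genes lowered this value to 0.57, with a call that remained (adjusted p = 0.000236), whereas the same removal over genes with little shared sequence gave 1.33. Ddit3 has the lowest GC content of the 10 regulators, at 45.6% of its longest transcript. Its neighbour Mars, which overlaps it on the opposite strand, was at 114 CPM with AMI-5 and 117 CPM in controls on average, with a log2 fold change of -0.045 (adjusted p = 0.530).

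Atf3 (ENSMUSG00000026628, chromosome 1, 191170296 to 191218039), a stress-inducible repressor and also an immediate early gene, was at 34.9, 34.6 and 31.9 CPM with AMI-5 and 17.5, 22.96 and 17.7 CPM in controls. Control replicate 2 was the highest of its group and still lay below every AMI-5 library. The log2 fold change was 0.80 (SE 0.10, adjusted p = 4.97e-05).

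Trib3 (ENSMUSG00000032715, chromosome 2, 152337422 to 152344032), a pseudokinase that ATF4 and CHOP induce and that dampens both ATF4 and AKT signalling, was at 91.9, 85.3 and 62.7 CPM with AMI-5. In controls it was at 8.99, 10.4 and 7.35 CPM. The lowest AMI-5 library, replicate 3, was about 6 times the highest control. Its log2 fold change was 3.16 (SE 0.20, 95% interval 2.69 to 3.64, adjusted p = 1.86e-05), and 91.7% of all genes tested, or 99.7% of those with little shared sequence, had a smaller or equal one. The value stayed between 3.04 and 3.38 over the 17 alternatives, all of which called it higher.

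Nupr1 (ENSMUSG00000030717, chromosome 7, 126623249 to 126630861), a stress-induced chromatin protein first found in injured pancreas, had the most reads of the 10. It was at 1169.9, 1039 and 1150.2 CPM with AMI-5, against 555, 577 and 421 CPM in controls. All 3 AMI-5 libraries lay well above the controls, with replicate 2 lowest. Its log2 fold change was 1.11 (SE 0.12, adjusted p = 7.77e-05). Nupr1 is high in acinar cells, and AMI-5 replicate 2, where it was lowest, also had the lowest summed CPM of the acinar markers among AMI-5 libraries (141364, against 166792 and 176084), as did control replicate 3 among controls (59863, against 84187 and 82187). Digestive enzyme transcripts led these sums, with Ctrb1 at 69772 and Pnliprp1 at 48091 CPM on average with AMI-5. Of the 22 acinar markers, 16 were higher, 1 was lower and 5 were not called, beside 27.5% higher and 26.6% lower over all genes tested. The lower one was the transcription factor Nr5a2 (-0.40), and the factors Rbpjl (-0.54), Ptf1a (-0.087) and Bhlha15 (0.12) were not called. The part of the acinar share in the Nupr1 result was not tested.

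**Figure D2:**
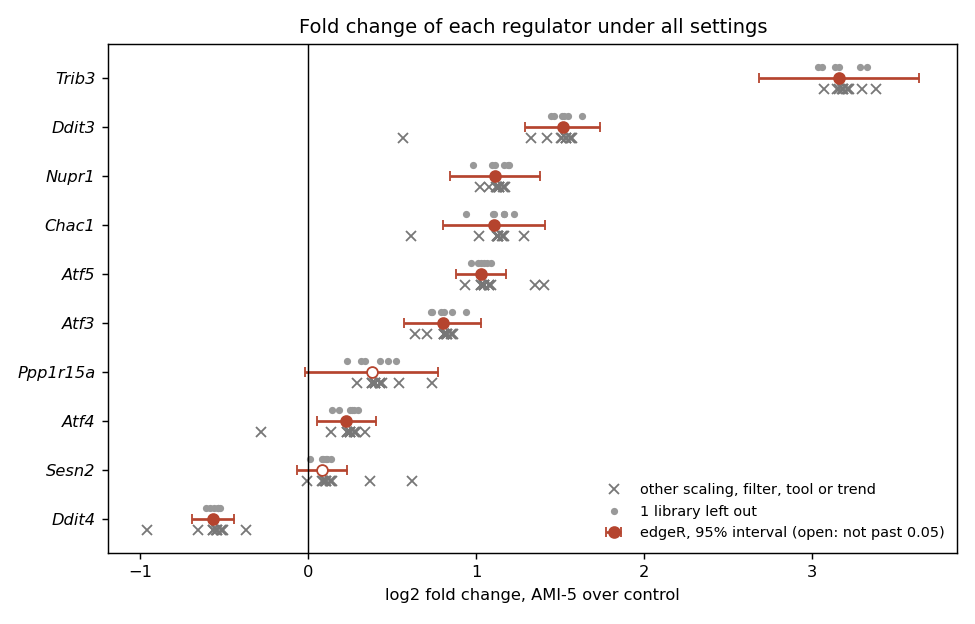
Log2 fold change (AMI-5 over control) of each regulator from edgeR with its 95% interval (red, open where the adjusted p was 0.05 or more), with values from fits that leave out 1 library (grey dots) and from other scaling, filters, tools or trend removal (grey crosses). Trib3 lies apart at 3.16 and Ddit4 is below 0 in all fits; Atf4 crosses 0 with trends removed over all genes (-0.28), and Sesn2 with libraries scaled by totals (-0.010).

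The stress effectors moved in different directions. Chac1 (ENSMUSG00000027313, chromosome 2, 119351229 to 119354381), an enzyme that breaks down glutathione, was at 37.0, 37.9 and 34.2 CPM with AMI-5 and 19.7, 18.3 and 12.7 CPM in controls. No AMI-5 library overlapped a control, and control replicate 3 was the lowest of all. The log2 fold change was 1.11 (SE 0.13, adjusted p = 7.18e-05), and 0.61 with sequence trends removed over all genes.

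Sesn2 (ENSMUSG00000028893, chromosome 4, 132492032 to 132510501), a leucine sensor that restrains mTORC1, was at 56.9, 56.2 and 54.8 CPM with AMI-5 and 57.2, 53.8 and 47.8 CPM in controls, and the groups overlapped. The log2 fold change was 0.081 (95% interval -0.070 to 0.23, adjusted p = 0.345). The sign turned with libraries scaled by their totals alone (-0.010), and removal of sequence trends gave a call up, at 0.37 over genes with little shared sequence (adjusted p = 0.00140) and 0.62 over all genes.

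Ddit4 (ENSMUSG00000020108, chromosome 10, 59949675 to 59951770), which encodes REDD1, an mTORC1 inhibitor induced by ATF4, low oxygen and glucocorticoids, was the regulator that fell. It was at 241, 231 and 224 CPM with AMI-5 and at 358, 348 and 325 CPM in controls. Every AMI-5 library lay below every control, with a small spread in both groups. Its log2 fold change was -0.57 (SE 0.058, adjusted p = 6.84e-06), with -0.96 once sequence trends were removed over all genes and -0.37 over genes with little shared sequence. All 17 alternatives called it lower.

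Ppp1r15a (ENSMUSG00000040435, chromosome 7, 45522916 to 45526268) encodes GADD34, the inducible subunit that directs a phosphatase to eIF2 and so ends the response. It was at 42.9, 42.7 and 31.8 CPM with AMI-5 and 34.3, 32.4 and 23.7 CPM in controls. The groups overlapped, with AMI-5 replicate 3 below control replicates 1 and 2. The log2 fold change was 0.38 (SE 0.17, 95% interval -0.022 to 0.77) and was not called in edgeR (adjusted p = 0.0990). Its adjusted p ran from 3.73e-05 to 0.217 over the alternatives, and 6 of 17 called it higher, among them DESeq2 (0.40, adjusted p = 0.0133) and the fit without AMI-5 replicate 3 (0.52, adjusted p = 0.00872).

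Within groups, the regulators varied together between libraries. AMI-5 replicate 3 had the lowest CPM of its group for 9 of the 10, all but Nupr1, and control replicate 3 for 8 of the 10, all but Ddit3 and Atf3. Over all genes tested, AMI-5 replicate 3 was lowest for 31.8% and control replicate 3 for 34.4%. The same libraries were lowest in immediate early genes, transcripts that rise within minutes of handling or stimulation: their 17 genes summed to 1635, 1804 and 1384 CPM with AMI-5 and 1427, 1374 and 1108 CPM in controls. The part of handling in these values was not tested. Of 16 immediate early genes tested, 3 were higher with AMI-5 and 1 was lower, beside 27.5% and 26.6% over all genes tested. The median of the list was 0.46 on the log2 scale, against -0.0013 over all genes tested. Egr2 (0.78), Btg2 (0.47) and Klf6 (0.46) were higher and Myc (-0.35) was lower. Jun, the most abundant, was at -0.020, and Egr1, next in abundance, was at 0.68 but not called (edgeR adjusted p = 0.111). Without AMI-5 replicate 3, 8 immediate early genes were higher.

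A ratio of reads within a library does not depend on how libraries are scaled. For every 100 reads of Atf4, the AMI-5 libraries held 30.9, 30.6 and 24.4 reads of Trib3, and the controls 3.60, 4.11 and 3.51. Ddit3 was at 18.4, 18.3 and 16.5 reads per 100 Atf4 reads with AMI-5 and at 6.46, 7.19 and 8.35 in controls. Both ratios separated the groups fully. Atf5 was at 95.6, 101.5 and 100.4 reads per 100 Atf4 reads with AMI-5, close to read parity, and at 57.0, 54.9 and 59.2 in controls. Ddit4 was at 81.0, 82.6 and 87.3 per 100 Atf4 reads with AMI-5, against 144, 137 and 155 in controls, so that it outnumbered Atf4 in controls only. Nupr1, Chac1 and Atf3 also rose against Atf4 without overlap, by 1.86, 1.86 and 1.49 times on average, whereas the ratios of Sesn2 and Ppp1r15a overlapped between groups.

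**Figure D3:**
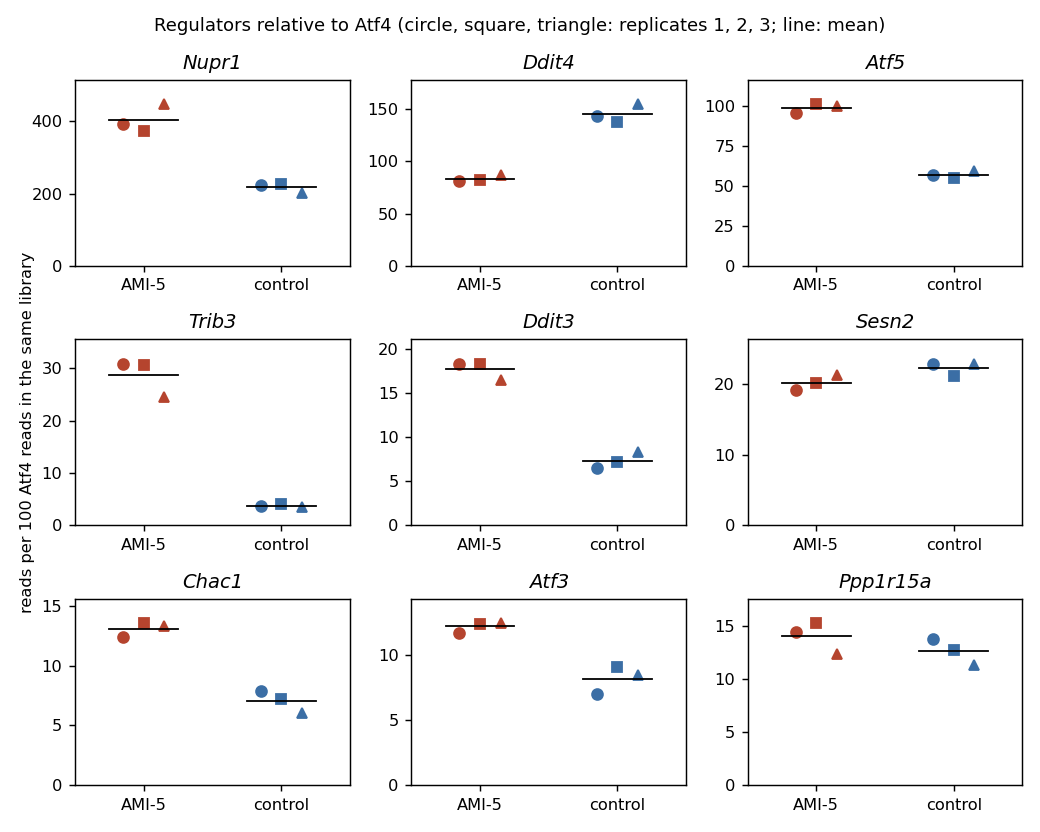
Reads of 9 regulators per 100 reads of Atf4 in the same library, on linear axes from 0, with replicates 1, 2 and 3 as circles, squares and triangles and the group mean as a line. Trib3 is at 28.6 ± 3.64 with AMI-5 and 3.74 ± 0.324 in controls (SD, n = 3), while Sesn2 and Ppp1r15a overlap.

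Each of 4 effectors was set against a paralog within the same library, with an exact two-sided permutation test whose smallest p is 0.1 with 3 against 3, so that no ratio could reach 0.05. Trib3 had 1.67, 1.42 and 1.09 reads per read of Trib1 with AMI-5 and 0.143, 0.159 and 0.129 in controls, a log2 difference of 3.26 (exact permutation p = 0.1, 0.2 adjusted over the 4 ratios). Trib3 thus outnumbered its paralog in AMI-5 libraries alone. Chac1 had 1.73, 2.35 and 1.85 reads per read of Chac2 with AMI-5 and 1.54, 1.45 and 1.12 in controls, a log2 difference of 0.53 (exact permutation p = 0.1, 0.2 adjusted). Chac2 itself was called higher, at a log2 fold change of 0.61 (edgeR adjusted p = 0.000940). Ppp1r15a had 0.277, 0.264 and 0.199 reads per read of its constitutive counterpart Ppp1r15b with AMI-5 and 0.231, 0.220 and 0.169 in controls, and the groups overlapped (log2 difference 0.26, exact permutation p = 0.3). That difference was 0.11 without control replicate 3, 0.16 without AMI-5 replicate 1 and 0.40 without AMI-5 replicate 3. Sesn2 had 1.05, 1.17 and 1.09 reads per read of Sesn1, a p53 target, with AMI-5 and 1.23, 1.19 and 1.16 in controls, which also overlapped (log2 difference -0.11, exact permutation p = 0.2). Sesn1 itself was called higher, at a log2 fold change of 0.20 (edgeR adjusted p = 0.0315), while Sesn2 was not called.

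Levels of different genes were compared per kilobase of merged exons, as CPM per kilobase. With AMI-5, Nupr1 led at 445 ± 28.1 CPM per kilobase, followed by Atf4 at 161 ± 11.9, Atf5 at 138 ± 7.60 and Ddit4 at 138 ± 5.09 (SD, n = 3). Trib3 followed at 37.6 ± 7.21, ahead of Ddit3 at 28.8 ± 3.70 and Chac1 at 22.2 ± 1.178. Sesn2, Atf3 and Ppp1r15a closed the order at 16.1 ± 0.316, 15.7 ± 0.754 and 13.3 ± 2.15 CPM per kilobase. Atf5 and Ddit4, Trib3 and Ddit3, and Sesn2 and Atf3 were neighbours whose libraries overlapped. In controls the order was different. Nupr1 (206 ± 33.7) and Ddit4 (204 ± 10.02 CPM per kilobase) led with overlapping libraries, then came Atf4 (138 ± 14.03), Atf5 (67.8 ± 4.87) and Sesn2 (15.2 ± 1.36). Chac1, Ppp1r15a, Ddit3 and Atf3 lay between 10.3 ± 2.25 and 8.995 ± 1.44 CPM per kilobase, each overlapping the next, and Trib3 was last at 4.20 ± 0.723 (SD, n = 3).

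**Figure D4:**
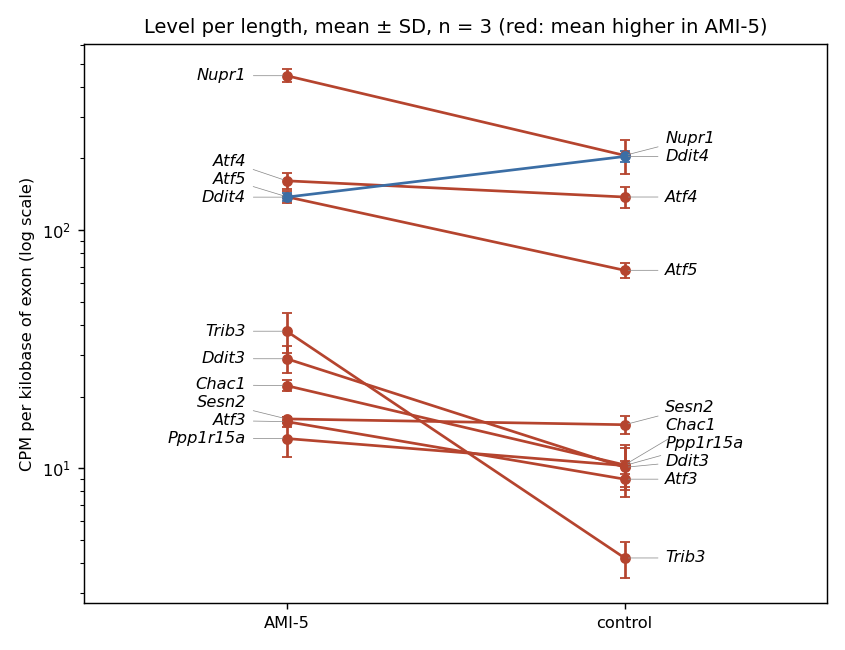
Mean level of each regulator per kilobase of exon (CPM per kilobase, log axis, bars SD of 3 libraries) in AMI-5 and control libraries, joined by a red line where the mean is higher with AMI-5 and a blue line where it is lower. Trib3 is number 5 of 10 with AMI-5 and last in controls, and Ddit4 (138 with AMI-5, 204 in controls) has the only blue line; the red lines of Atf4 and Sesn2 change direction under other scalings (Atf4 at a log2 fold change of -0.28 with trends removed over all genes, Sesn2 at -0.010 with library totals).

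Genes that ATF4 is known to induce, outside the regulators, were higher more often than lower. Of 37 tested, 22 were higher and 3 lower, beside 27.5% higher and 26.6% lower over all genes tested. Their median was 0.32 on the log2 scale. The mitochondrial folate enzymes Aldh1l2 and Mthfd2 had log2 fold changes of 1.92 (SE 0.12, adjusted p = 1.517e-06) and 0.74 (SE 0.069, adjusted p = 2.97e-06). Aldh1l2 has 13.6% of its 50-base sequences in other genes and so is not in the fits of genes with little shared sequence. The lipoprotein receptor Vldlr was at 88.6 ± 10.3 CPM with AMI-5 and 39.5 ± 3.72 CPM in controls (SD, n = 3), a log2 fold change of 1.17. The transporter subunit Slc3a2 had a log2 fold change of 0.63 and Eprs, a tRNA synthetase and the most abundant of the list, 0.50. The amino acid transporter Slc38a2, next in abundance, was at 302 CPM with AMI-5 and 295 CPM in controls (log2 fold change 0.034, adjusted p = 0.626). The 3 lower genes, named after their values were seen, were the serine synthesis enzyme Phgdh (-0.53), Shmt2 (-0.34) and Gpt2 (-0.25), and 47.8% of the 50-base sequences of Phgdh lie in other genes. With sequence trends removed over genes with little shared sequence, a fit that does not hold Phgdh, 0 of the list were lower.

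Among bZIP proteins that pair or compete with ATF4, 4 of 17 were higher and 7 lower, beside 27.5% and 26.6% over all genes tested. Cebpg, a C/EBP partner of ATF4, was higher at 83.6 ± 4.26 CPM with AMI-5, against 46.8 ± 3.89 CPM in controls (SD, n = 3; log2 fold change 0.84, SE 0.071, adjusted p = 1.27e-06). Cebpb, another partner, was lower at 16.4 ± 1.80 CPM with AMI-5 and 24.97 ± 2.97 CPM in controls (-0.61, adjusted p = 0.000600), as was Cebpd (-0.54). Jund was lower as well (-0.80), and shares 48.3% of its 50-base sequences with other genes, against 18.1% for Cebpb and 13.7% for Cebpd. With sequence trends removed over genes with little shared sequence, a fit that leaves these 3 genes out, 1 was higher and 0 were lower. Without any 1 of the control libraries, 2 were higher.

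Upstream of Atf4, the genes of the eIF2 machinery had log2 fold changes between -0.35 and 0.39. Of 18 tested, 3 were higher and 4 lower, beside 27.5% higher and 26.6% lower over all genes tested. The median of the list was -0.051 on the log2 scale. None of the 4 eIF2 kinases passed the test: Eif2ak3, the sensor of unfolded protein known as PERK, was at 0.19 (adjusted p = 0.0867) and Eif2ak4, the amino acid sensor GCN2, at -0.11 (adjusted p = 0.170). Eif2ak1, the heme sensor, was at 0.0089 (adjusted p = 0.926) and Eif2ak2, the sensor of double-stranded RNA, at -0.28 (SE 0.31, adjusted p = 0.499). The eIF2 subunit Eif2s2 (0.39) and the PERK inhibitor Dnajc3 (0.39) were higher, and the eIF2B subunit Eif2b2 (-0.29) and Dele1 (-0.35), which relays mitochondrial stress to the pathway, were lower. Gcn1l1, the activator of GCN2, was also lower (-0.27, adjusted p = 0.00518). These counts depend on scaling, with 7 higher under upper-quartile scaling, 8 lower with library totals alone, and 5 higher without AMI-5 replicate 1.

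Of 25 genes of the parallel unfolded protein branches, 9 were higher and 6 lower, beside 27.5% higher and 26.6% lower over all genes tested, and their median was 0.057 on the log2 scale. The co-chaperone Dnajb9 was higher (0.87, SE 0.073, adjusted p = 1.154e-06), as was the sensor Atf6 (0.50), whereas its relative Atf6b (-0.49) and the ubiquitin ligase Syvn1 (-0.45) were lower. The abundant chaperone Hspa5 was at 1547 ± 78.7 CPM with AMI-5 and 1257 ± 63.5 CPM in controls (SD, n = 3), a log2 fold change of 0.30 (adjusted p = 0.00154), and the disulfide isomerase P4hb had one of 0.22.

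Because Sesn2, Ddit4 and Atf3 also answer to p53 or low oxygen, targets of both were read beside them. Of 17 p53 targets, 4 were higher and 5 lower, shares near the 27.5% and 26.6% over all genes tested, around a median of -0.014 (2 higher without AMI-5 replicate 1). Ccng1 (0.52) and Trp53inp1 (0.33) were higher, Gtse1 (-0.80) and Bbc3 (-0.50) were lower, and the abundant Plk2 was at -0.096 (adjusted p = 0.291) and Btg2 at 0.47 (adjusted p = 0.0154). Of 16 hypoxia-response genes, 14 were higher and 0 lower, around a median of 1.07. Among them the mitophagy receptor Bnip3l was at 0.75, the collagen hydroxylase P4ha1 at 1.41, the lysyl oxidase relative Loxl2 at 1.23, the peptide hormone Adm at 1.98 and Ndrg1 at 1.69, while Vegfa was not called (0.32, adjusted p = 0.0645). Ddit4, at -0.57, thus lay below all 16 of these genes. Bnip3l and Loxl2 share 20.8% and 45.0% of their 50-base sequences with other genes, and are not among the 10 list genes with little shared sequence, of which 9 were higher with sequence trends removed over that class.

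**Figure D5:**
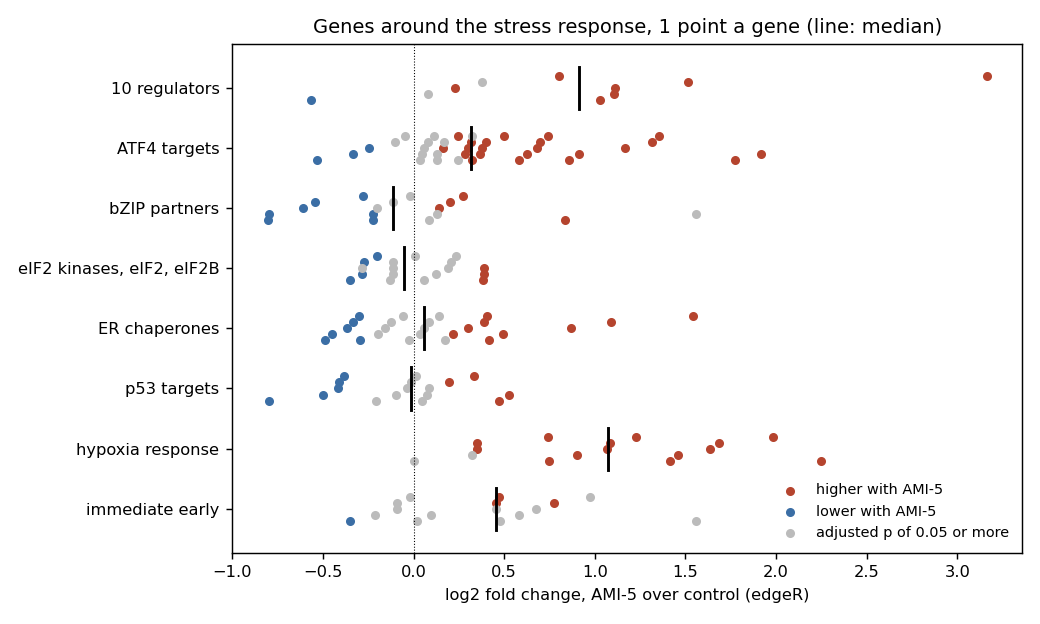
Log2 fold change (AMI-5 over control) of each tested gene in 8 lists, red where higher, blue where lower and grey where the adjusted p was 0.05 or more, with the median as a black line. Medians are 0.91 for the regulators, 0.32 for ATF4 targets, -0.051 for the eIF2 machinery and 1.07 for the response to low oxygen; Ddit4 is the only blue point among the regulators, and the Atf4 point, at 0.23, moves to -0.28 with trends removed over all genes.

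The median profile of the regulators over the 6 libraries, in log2 CPM relative to the control mean, was 0.97, 0.93 and 0.83 with AMI-5 and 0.075, 0.11 and -0.16 in controls. Among 8913 other protein-coding genes with little shared sequence and a mean of at least 5 CPM, the 5 nearest to it by root-mean-square distance over the 6 libraries were Cutal (0.054), Reep6 (0.058), Rab27b (0.064), Smpdl3a (0.070) and Fam167a (0.074). Reep6 was at 73.0 CPM with AMI-5 and 37.6 CPM in controls on average, and Rab27b, a small GTPase of secretory granules, at 29.1 CPM with AMI-5 and 15.6 CPM in controls.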

How the data were processed

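The authors deposited 1 table of read counts per gene for the 6 libraries, not normalized, with gene lengths in bases of merged exons. The submitters' processing notes name featureCounts 1.6.2, GSNAP 2018-05-30, bcl2fastq 2.19.1 and the build mm10. The sources used here give neither the strand setting nor the treatment of multi-mapping reads. The 92 spike-in entries, with 1 read in all, were left out. Symbols, classes and shared sequence came from GENCODE M21 (mm10), in which 99.8% of shared gene identifiers lay at an overlapping position. Promoter windows came from RefSeq.

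The test was the two-sided quasi-likelihood test of edgeR 4.0.16 under R 4.3.3, after TMM scaling and filterByExpr, with robust dispersions and no covariate. The common biological coefficient of variation was 9.65%. SE is the log2 fold change over the square root of F, and 95% intervals use the fit's degrees of freedom. The test was checked on simulated counts. Depth was 12445425 to 24805188 counts a library. Replicates were not copies of one library (chi-square of 7.23 to 17.5 per degree of freedom), and each counted as 1 sample.

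Named genes are the 10 regulators, from each list described up to 4 called genes of smallest p and 2 of highest mean, the paralogs, and the 5 genes of like pattern. The eIF2 kinases, Mars, Nup62, Alb, some globins and the acinar transcription factors are named outside this rule, after their values were seen. The regulators and lists were chosen with earlier results of these data known. Alternatives were RLE, upper-quartile or no composition scaling, no filter or at least 10 counts in every library, DESeq2 1.42.0, limma voom 3.58.1, genes with little shared sequence alone, removal of GC and length trends (splines with 5 degrees of freedom), the replicate number as a block, and each library left out.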

Additional observations from a re-analysis of the deposited data

How the results depend on the processing

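Of 17 alternatives, every one kept the direction and the call of Trib3 (log2 fold change 3.04 to 3.38), Ddit3 (0.57 to 1.63), Atf3 (0.64 to 0.94), Atf5 (0.94 to 1.40), Chac1 (0.61 to 1.28), Nupr1 (0.98 to 1.19) and Ddit4 (-0.96 to -0.37). Between 6 and 9 regulators were higher, and 1 was lower except with trends removed over all genes, where 2 were. That removal moved the median of all genes by -0.14. It gave -0.28 for Atf4, 0.62 for Sesn2 and 0.73 for Ppp1r15a, and 2 lower bZIP partners and 2 lower immediate early genes. Library totals alone gave 0.14 for Atf4, -0.010 for Sesn2, 8 lower eIF2 genes, 2 higher bZIP partners and 2 lower immediate early genes, and moved higher genes to 40.2% of all calls, against 50.9% in the reported fit. Trends removed over genes with little shared sequence gave 0.37 for Sesn2, 0.54 for Ppp1r15a, 1 higher eIF2 gene, 1 higher and 0 lower bZIP partners, 0 lower ATF4 targets, 3 lower p53 targets, 9 higher genes of the response to low oxygen, and 1644 higher and 2633 lower genes in all, from the 10915 genes of that fit. Those genes alone, without trend removal, gave 2495 higher and 2733 lower genes and 2 lower bZIP partners. With no filter, Ppp1r15a was at 0.40 and called and 5 eIF2 genes were higher. DESeq2 called Ppp1r15a at 0.40 and 7 immediate early genes. RLE scaling gave 5 higher eIF2 genes, upper-quartile scaling 7 (and 5 immediate early genes), and at least 10 counts in every library 7 (and 5). The fits over genes with little shared sequence do not hold every gene of a list, so their counts cover fewer genes. Among the genes left out are Eif2s2 and Eif2s3x (10.3% and 34.6% shared), both higher in the reported fit. Cebpb, Cebpd, Jund and the p53 target Tnfrsf10b (6.21% shared), all lower in the reported fit, are left out too. Beyond these smaller lists, the cause of the moves was not tested.

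With 1 library left out, Atf4 ranged from 0.14 to 0.30 and Ppp1r15a from 0.23 to 0.52. Counts of higher genes ranged from 2 to 5 for the eIF2 machinery, 2 to 4 for bZIP partners, 2 to 4 for p53 targets and 2 to 8 for immediate early genes. No paralog ratio changed sign.

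Replicate numbers are shared between groups, but over all genes tested same-numbered libraries did not deviate together (correlations of -0.053, -0.035 and -0.044). Replicate 3 was still lowest in both groups for most regulators, 9 of 10 with AMI-5 and 8 of 10 in controls. Whether the numbers pair libraries for these genes was not tested. As a replicate block, the numbers called Ppp1r15a higher (0.38, adjusted p = 0.00181) and 9 immediate early genes higher, with no other call on a regulator changed. Over all alternatives, fold changes of the regulators gained a call 8 times, lost it 3 times and changed sign 2 times.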
